A study of Macaca mulatta with 24 samples.

Results

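The ileum at day 12 after total-body irradiation (TBI) was compared with the ileum at day 7. All 4 arrays titled day 12 and all 8 arrays titled day 7 entered, whatever the dose, which made 12 of the 24 arrays of the study. Dose was kept as a block, so each difference was the mean of the difference at 6.7 Gy and that at 7.4 Gy. The animals were young-adult male Rhesus macaques that received a single uniform dose of cobalt-60 gamma rays to the whole body, and a piece of whole ileum was taken from each at necropsy. Day 7 held 4 animals at 6.7 Gy and 4 at 7.4 Gy, and day 12 held 2 animals at each dose. The remaining arrays, 4 unirradiated animals that were collected with day 4 and 8 animals at day 4, are given as levels and were not compared. They did enter the fit that set the spread of each probe, and the choice of the probes to test. Each array held the RNA of 1 animal and no RNA was pooled, so the spread between arrays covered animals, extraction and hybridisation together. Different animals were sampled on each day, and the protocol text of the labels named another last day than the titles, the day field and the study's methods, which all gave day 12.

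The small intestinal epithelium is renewed from dividing cells in the crypts, which are among the cells of the body most sensitive to ionizing radiation, and its surface is rebuilt as surviving crypt cells divide. TBI also empties the bone marrow, so that red cell precursors, lymphocytes and other blood cells in the tissue fall and return on their own schedules. Interferons switch on a large group of antiviral genes in many cell types, and the p53 protein switches on genes of arrest and repair after DNA damage.

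Levels are log2 signals relative to the 75th percentile of the same array, so 0 is the level of that percentile and 1 unit is a 2-fold change. Probes of 1 gene were not compared with probes of another. The ileum label was borne out by its markers: FABP6, the ileal bile acid binding protein, SLC10A2, the ileal bile acid transporter, VIL1, the brush border protein villin, MUC2, the goblet cell mucin, and DEFA6, a Paneth cell defensin, were well above background on all 24 arrays. OLFM4, a crypt stem cell marker, was well above background on 15 of 24 arrays and FABP2 on 10. The share of probes well above background ran from 79.3% to 85.9% on the day 12 arrays and from 76.5% to 87.0% on the day 7 arrays, with medians of 82.1% and 82.9%. The array layout touched every result below: all 4 day 12 arrays lay at position 4 of their slides, while 6 of the 8 day 7 arrays lay at position 3. Day 7 arrays at position 4 were the 7.4 Gy replicates 3 and 4, and 4 of the 6 slides held 1 array of each day at the same dose.

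Few probes differed between the days. Of 36108 probes tested, 41 were called at an adjusted p under 0.05 and a change of at least 2-fold, which was 0.114%, with 32 higher and 9 lower at day 12 (limma with Benjamini-Hochberg adjustment, as for every adjusted p here). Beta globin, interleukin 6, the interferon-induced OASL and the growth factor FGF10 rose, while a nicotinamide mononucleotide adenylyltransferase 2-like gene and the protease gene CTSL2 fell. Before adjustment, 384 probes had p under 0.05 and a 2-fold change. Of the 41 probes, 25 carried a gene symbol, 19 of them higher and 6 lower, and 16 carried none. In 31 of the 41 probes the 4 day 12 arrays did not overlap with the 8 day 7 arrays, and in 10 they did. The choice of the probes on these same arrays favours such a count. Of all 36108 probes, 524 had every day 12 array above every day 7 array and 468 had every one below. Leaving out single arrays moved the count between 18 and 68: it was 19 without day 12, 6.7 Gy replicate 1, 18 without day 12, 7.4 Gy replicate 1, 25 without day 7, 7.4 Gy replicate 4 and 68 without day 7, 7.4 Gy replicate 2. With array position as a covariate 5 probes were called, 3 higher and 2 lower, and with slide as a fixed block 11, 6 higher and 5 lower. The split also moved to 14 higher and 0 lower with normexp background correction, to 36 and 21 with quantile normalization, and to 1 and 5 with the replicate number as a block.

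Taking each of the 14187 genes by its brightest tested probe, 48 passed the adjusted p at any fold, 0.338% of the genes, with 23 higher and 25 lower at day 12. All day 12 arrays lay above all day 7 arrays in 201 genes (1.42%) and below them in 198 (1.40%). The median difference over all genes was 0.02 on the log2 scale, a value that the scaling of each array to its own 75th percentile holds near 0.

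The red cell genes held one of the largest differences. HBB, the beta chain of adult haemoglobin, stood at -2.50 and -3.02 on the day 12 arrays at 6.7 Gy and at -2.58 and 0.20 on those at 7.4 Gy. Its day 7 signals had a lowest value of -6.03, a median of -5.41 and a highest value of -4.36. The groups did not overlap, and 1 day 12 array, 7.4 Gy replicate 2, stood above the others. HBB rose by 3.37 ± 0.53 (SE) on the log2 scale, 10.3-fold, with adjusted p = 0.0077. The unirradiated animals had higher signals still, from 0.80 to 2.76, and day 4 had a mean of -4.13 ± 0.96 (SD, n = 8). The rise in HBB was 2.23 at 6.7 Gy and 4.51 at 7.4 Gy, and the adjusted p was 0.050 without day 12, 6.7 Gy replicate 1. Over 30 alternative fits and processings, omissions of single arrays included, HBB lost its pass in 7. Its difference ran from 1.96 to 4.07 over them. Globin genes resemble each other closely, and a probe for one may bind RNA of another. A second HBB probe was well above background on 2 of 4 day 12 arrays and on 0 of 8 day 7 arrays, so its difference is not given as a measurement of the gene.

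HBG2, a fetal gamma globin gene, was measured by 3 probes. One of them was called higher (adjusted p = 0.013) but was well above background on 3 of 8 day 7 arrays, so no size is given for it, and it did not pass without day 12, 6.7 Gy replicate 2 or 7.4 Gy replicate 2 (adjusted p from 0.065 to 0.081). The brightest HBG2 probe rose by 0.64 (adjusted p = 0.031), and the remaining one gave 0.16. The list of 22 erythroid markers held HBB but not HBG2, and its other genes did not pass the test. Of its 12 tested members, HBB alone passed, 8 lay above 0, and the median difference was 0.13, beside 0.02 for all genes. The mean of the erythroid list, HBB included, ran from -1.04 to -0.83 on day 12 and from -1.56 to -1.20 on day 7, without overlap. ANK1, the red cell membrane ankyrin, had a difference of 1.33 (adjusted p = 0.16) with no overlap between the days, the alpha globin HBA1 one of 0.08, and KLF1, the erythroid master regulator, one of 0.23. In whole tissue, more cells of a type and more RNA per cell cannot be told apart, nor can red cells in the wall and blood left in its vessels.

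Among signalling genes, IL6, a cytokine of the acute phase response, rose by 1.67 ± 0.27 (SE), 3.18-fold, with adjusted p = 0.0080. It stood at -1.94 and -2.14 on the day 12 arrays at 6.7 Gy and at -1.89 and -2.83 on those at 7.4 Gy. On day 7 its lowest signal was -4.24, its median -3.92 and its highest -3.51. Every day 12 array lay above every day 7 array, the unirradiated mean of -3.04 ± 0.80 (SD, n = 4) lay between the 2 days, and the change was nearly the same at 6.7 Gy (1.73) and 7.4 Gy (1.60). Without day 12, 6.7 Gy replicate 1 the adjusted p for IL6 was 0.050, and without day 12, 7.4 Gy replicate 1 it was 0.086. Over 30 alternatives, these omissions included, IL6 lost its pass in 5, and its difference ran from 1.09 to 1.90. No other member of the TNF-induced inflammatory list passed. Its 27 tested members, of 34 listed and with interleukin 8 present under both of its symbols, had a median difference of -0.01, and 12 lay above 0. TNF itself differed by -0.16, IL1B by 0.21, the chemokine CCL2 by 0.49 and CXCL1 by -0.65, none past the test.

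FGF10, a growth factor that mesenchymal cells send to epithelium, rose by 1.29 ± 0.23 (SE), 2.44-fold, with adjusted p = 0.021. Its day 12 signals were -2.86 and -2.97 at 6.7 Gy and -2.91 and -3.79 at 7.4 Gy, against a lowest value of -4.77, a median of -4.51 and a highest value of -3.94 on day 7. The days did not overlap, although 7.4 Gy replicate 2 at day 12 came within reach of the top day 7 array. Leaving out day 12, 6.7 Gy replicate 1, 6.7 Gy replicate 2 or 7.4 Gy replicate 1 ended the call of FGF10, at adjusted p between 0.062 and 0.16. With these omissions counted, 8 of 30 alternatives ended its pass, and its difference ran from 0.72 to 1.51.

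**Figure D1:**
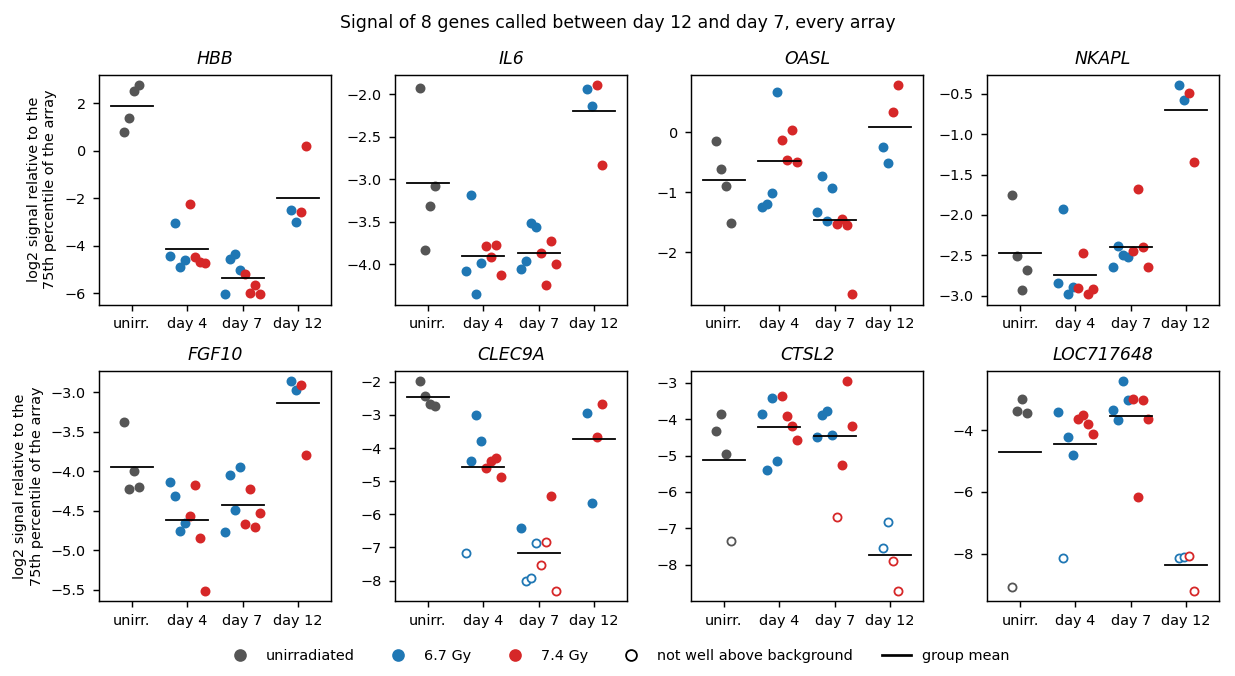
Log2 signal of 8 called genes relative to the 75th percentile of the array, by day, with 1 point per array, colour for dose and a line for the mean of each day. HBB at day 12 lies between -3.02 and 0.20, above every day 7 array and below every unirradiated array, while LOC717648 lies between -9.18 and -8.08 at day 12.

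The interferon-stimulated genes lay on the higher side at day 12, and OASL alone passed the test. Of 43 genes listed, 33 were tested, 32 lay above 0 at day 12, and the median difference was 0.58, beside 7598 of 14187 genes above 0 and a median of 0.02 for all genes. OASL, an antiviral 2'-5'-oligoadenylate synthetase-like gene, stood at -0.24 and -0.51 on the day 12 arrays at 6.7 Gy and at 0.34 and 0.79 on those at 7.4 Gy. On day 7 OASL had a lowest signal of -2.70, a median of -1.46 and a highest of -0.73. The groups did not overlap, and OASL rose by 1.56 ± 0.32 (SE), 2.95-fold, with adjusted p = 0.045. The change was 0.74 at 6.7 Gy and 2.38 at 7.4 Gy. Its place past the threshold was slight, since leaving out 9 of the 12 arrays in turn gave adjusted p between 0.051 and 0.16; the 3 arrays whose removal kept the call were day 7, 6.7 Gy replicate 4 and day 7, 7.4 Gy replicates 1 and 2.

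OAS2, a 2'-5'-oligoadenylate synthetase, had a difference of 1.08 (adjusted p = 0.075), PARP9 one of 0.58 (adjusted p = 0.066) and the nuclease gene ISG20 one of 0.73 (adjusted p = 0.22), each without overlap between the days. With OASL and XAF1 that made 5 of 33 members whose day 12 arrays all lay above all day 7 arrays, beside 1.42% of all genes. ISG15, the ubiquitin-like interferon product, had a difference of 1.07, IFIT3 one of 1.01, IFIT1 one of 0.85 and MX1 one of 0.63, none past the test. PLSCR1 lay on the other side of 0, at -0.11. The mean of the list on the day 12 arrays was 0.03 and -0.12 at 6.7 Gy and 0.48 and 0.52 at 7.4 Gy, and on day 7 it ran from -0.59 to -0.08 with a median of -0.32. The 6.7 Gy replicate 2 at day 12 overlapped with the top of day 7, and the unirradiated arrays, from -0.23 to 0.53, covered most of the day 12 range. The median over the members was 0.19 at 6.7 Gy and 0.96 at 7.4 Gy. Leaving out each of the 12 arrays kept the pooled median between 0.48 and 0.62.

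Outside the list, 3 genes were singled out after their values were seen. TRIM21, an intracellular antibody receptor and ubiquitin ligase, rose by 0.66 ± 0.13 (SE) with adjusted p = 0.033. UBA7, the enzyme that activates ISG15 for conjugation, rose by 0.64 ± 0.12 (SE) with adjusted p = 0.026, and its day 12 signals of 0.03, -0.09, 0.10 and 0.00 all lay above the highest day 7 signal of -0.36. Of 3 probes for ZNFX1, an antiviral RNA helicase, the dimmest rose by 1.28 (adjusted p = 0.040), while the brightest gave 0.54 (adjusted p = 0.14) and the remaining one 0.67 (adjusted p = 0.13), so ZNFX1 did not pass by its brightest probe. These passes were slight. Leaving out any of the 4 day 12 arrays ended the pass of TRIM21 and of UBA7, as did 4 and 3 of the day 7 arrays (adjusted p up to 0.18 and 0.13), and ZNFX1 kept its call in 3 of 12 omissions, those of day 7, 6.7 Gy replicate 4, day 7, 7.4 Gy replicate 1 and day 12, 6.7 Gy replicate 2. The day 7 arrays were 6.7 Gy replicates 2 and 3 and 7.4 Gy replicate 4 for both genes, and also 7.4 Gy replicate 3 for TRIM21.

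The genes of interferon gamma chemokines and antigen presentation lay above 0 in 17 of 18 tested members, of 24 listed, with a median difference of 0.52 and none past the test. That median was 0.32 at 6.7 Gy, 0.82 at 7.4 Gy, and 0.91 over both doses with array position as a covariate. CXCL9, CXCL10 and CXCL11, which draw activated T cells, had differences of 1.47 (adjusted p = 0.35), 1.30 (adjusted p = 0.30) and 1.16 (adjusted p = 0.35). CXCL10 stood at -0.79 and -0.32 at 6.7 Gy and at 0.17 and 1.94 at 7.4 Gy on day 12, against -2.02 to 0.13 on day 7, so the 6.7 Gy arrays overlapped with day 7 and the 7.4 Gy arrays did not. CD74, the invariant chain of class II antigen presentation, differed by 0.80 (adjusted p = 0.15), the class I regulator NLRC5 by 1.03 and the shared class I chain B2M by 0.32. SOCS1, a feedback inhibitor of interferon signalling, and ICAM1, an adhesion molecule, were the 2 members without overlap, at 0.76 and 0.20, beside 1.42% of all genes.

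T cell and cytotoxic lymphocyte markers lay above 0 in 15 of 19 tested members, of 25 listed, with a median difference of 0.33. None passed the test. The granzyme genes GZMK, GZMA and GZMB, which encode proteases of killer lymphocytes, differed by 1.54 (adjusted p = 0.12), 1.16 and 0.90, and PRF1, the pore protein perforin, by 0.56 without overlap. GZMK stood at -0.26 and -0.93 at 6.7 Gy and at -2.54 and -0.37 at 7.4 Gy on day 12. The T cell receptor chains CD3D, CD3E and CD3G differed by 0.38, 0.28 and 0.34. The mean of the T cell list ran from -1.32 to -0.97 on day 12 and from -1.86 to -1.23 on day 7, so the days overlapped. Macrophage and monocyte genes lay above 0 in 11 of 14 tested members (median 0.23) and plasma cell genes in 8 of 10 (median 0.29), with list means that overlapped between the days. The part of these cell types in the interferon differences was not tested.

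CLEC9A, a receptor of the dendritic cells that cross-present antigen, rose with adjusted p = 0.023, although the size of its change was not well measured because most day 7 arrays lay near background. It stood at -2.94 and -5.67 on the day 12 arrays at 6.7 Gy and at -3.68 and -2.67 on those at 7.4 Gy. On day 7 its lowest signal was -8.30, its median -7.20 and its highest -5.45, and it was well above background on 2 of the 8 arrays. The days overlapped by 1 array, 6.7 Gy replicate 2, and the unirradiated mean of -2.46 ± 0.33 (SD, n = 4) lay above all day 12 arrays. The call was lost without day 12, 6.7 Gy replicate 1, 7.4 Gy replicate 1 or 7.4 Gy replicate 2 (adjusted p from 0.078 to 0.15), and the log2 difference was 3.42 ± 0.63 (SE) as fitted but 1.02 with normexp background correction (adjusted p = 0.065). One probe of TLR9, a receptor for microbial DNA in dendritic and B cells, rose by 1.44 ± 0.21 (SE) with adjusted p = 0.0048. Its call was kept whichever of the 12 arrays was left out but lost with slide or the replicate number as a fixed block, within the 4 slides that held both days at 1 dose, and with array position as a covariate (adjusted p from 0.052 to 0.15). The other 3 TLR9 probes gave differences of -0.07, 0.00 and 0.05, so the TLR9 gene as a whole did not show the rise. Of 8 tested B cell markers, 4 lay above 0, with a median difference of 0.01 and none past the test. FCRLA, a B cell gene, had a difference of 1.41 (adjusted p = 0.075) without overlap, while MS4A1, another B cell marker, differed by -0.25.

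**Figure D2:**
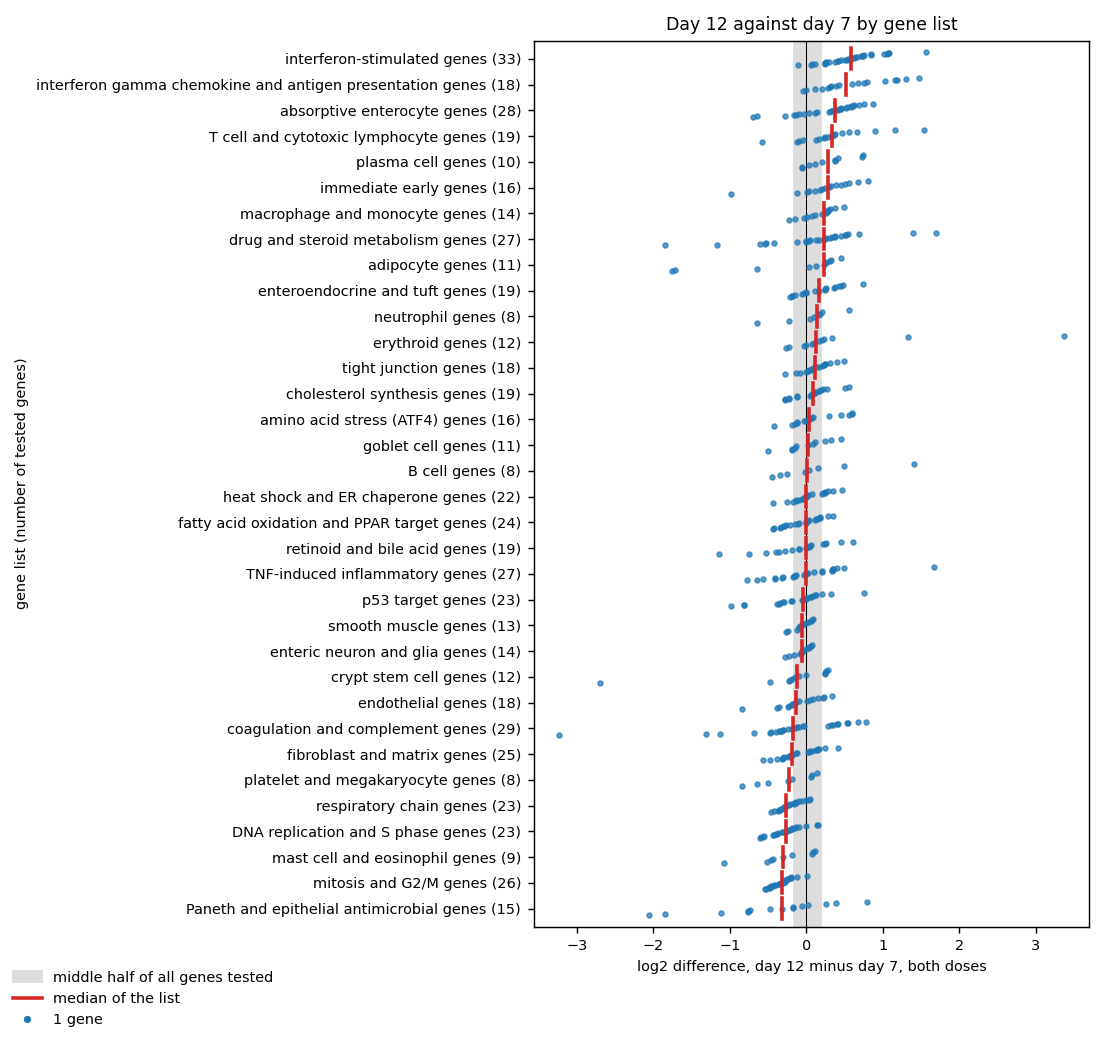
Log2 difference, day 12 minus day 7, of the tested members of the 34 gene lists, with 1 point per gene, a red line for the median of each list and a grey band for the interquartile range of all genes tested. Medians run from -0.32 for mitosis genes and for Paneth and epithelial antimicrobial genes to 0.58 for interferon-stimulated genes.

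Genes of cell division lay lower at day 12, none of them past the test. Of 37 mitosis and G2/M genes, 26 were tested, 25 lay below 0, and the median difference was -0.32. The kinase AURKA differed by -0.54, the survivin gene BIRC5 by -0.53, the mitotic cyclin gene CCNB1 by -0.48 and CDC20, an activator of the anaphase-promoting complex, by -0.48. Of these, CDC20 alone had day 12 arrays all below day 7. DNA replication and S phase genes lay below 0 in 21 of 23 tested members, of 34 listed, with a median of -0.26 that was -0.53 at 6.7 Gy and 0.02 at 7.4 Gy. The replication factor C subunits RFC5 and RFC4 differed by -0.60 and -0.44 without overlap, and the thymidylate synthase gene TYMS by -0.59. A second, dimmer RFC5 probe gave 0.17 (adjusted p = 0.81). The mean of the mitosis list stood at -0.46 and -0.66 at 6.7 Gy and at -0.54 and -0.23 at 7.4 Gy on day 12, against -0.52 to 0.13 on day 7 and -0.83 to -0.46 in unirradiated animals. With array position as a covariate the medians were -0.11 for mitosis and -0.04 for S phase. RAD51C, a recombination repair gene, fell by 0.59 on the log2 scale (adjusted p = 0.033), a pass kept in 3 of 12 omissions of an array, those of day 7, 6.7 Gy replicate 4 and day 7, 7.4 Gy replicates 1 and 2, and otherwise at adjusted p between 0.054 and 0.19.

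Respiratory chain genes lay below 0 in 21 of 23 tested members, of 39 listed, with a median difference of -0.26 and none past the test. The mean signal of the list was 4.36 and 4.37 at 6.7 Gy and 4.51 and 4.36 at 7.4 Gy on day 12, and ran from 4.54 to 4.74 on day 7. The days did not overlap, and the unirradiated arrays, from 4.44 to 4.52, lay at the upper edge of day 12. COX5A, a subunit of cytochrome c oxidase, differed by -0.46, and the complex I subunits NDUFB5 and NDUFB8 by -0.42 (adjusted p = 0.091) and -0.33. In these 3 of 23 genes all day 12 arrays lay below day 7, beside 1.40% of all genes. A mitochondrial malate dehydrogenase-like gene, LOC719983, fell by 0.61 on the log2 scale (adjusted p = 0.030), and PCCB, a subunit of the mitochondrial propionyl-CoA carboxylase, fell by 0.69 (adjusted p = 0.010). The PCCB signals on day 12 were 2.0, 1.97, 1.95 and 1.92, under a lowest day 7 signal of 2.40. PCCB no longer passed without day 12, 6.7 Gy replicate 1 or 2 or 7.4 Gy replicate 1 (adjusted p from 0.050 to 0.062), and LOC719983 without any day 12 array or without day 7, 6.7 Gy replicates 1 or 3 or 7.4 Gy replicates 3 or 4 (0.054 to 0.14).

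The p53 target genes had a median difference of -0.04 over 23 tested members, of 32 listed, and 9 lay above 0. TP53I3, EDA2R, FDXR and SESN1 had all day 12 arrays below all day 7 arrays, with differences of -0.98, -0.82, -0.35 and -0.34, as 1.40% of all genes did, and DDB2, a damage recognition gene of nucleotide excision repair, differed by -0.82 (adjusted p = 0.065). None passed the test. EDA2R, a TNF receptor family member, averaged -0.31 ± 0.40 (SD, n = 8) on day 7, -1.13 ± 0.12 (SD, n = 4) on day 12, 0.70 ± 0.46 (SD, n = 8) on day 4 and -2.81 ± 0.59 (SD, n = 4) without irradiation. The cell cycle inhibitor CDKN1A and the p53 ligase MDM2 differed by 0.09 and 0.01. The list mean ran from 0.01 to 0.19 on day 12, from 0.16 to 0.44 on day 7, from 0.32 to 0.93 on day 4 and from -0.20 to -0.07 in unirradiated animals. Day 12 lay between day 7 and the unirradiated arrays and overlapped with day 7.

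**Figure D3:**
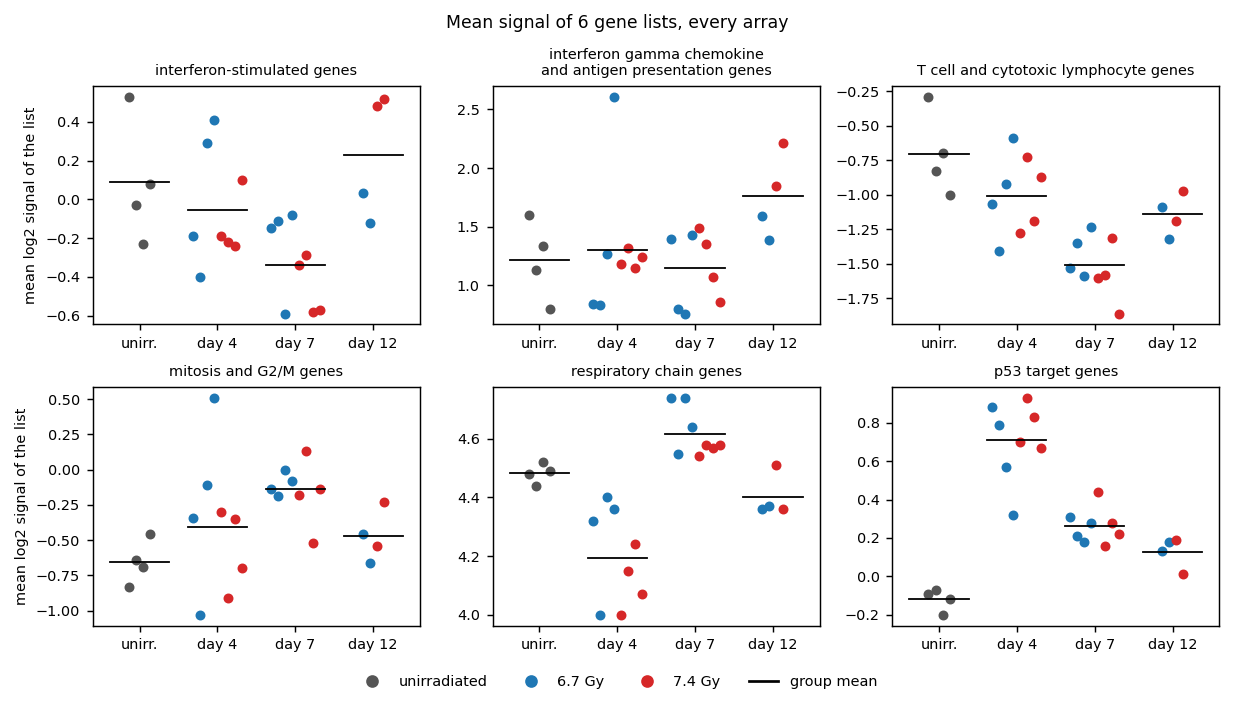
Mean log2 signal of 6 gene lists on every array, by day, with 1 point per array and colour for dose. Respiratory chain genes do not overlap between day 12 (4.36 to 4.51) and day 7 (4.54 to 4.74), and interferon-stimulated genes at day 12 are higher at 7.4 Gy (0.48 and 0.52) than at 6.7 Gy (0.03 and -0.12).

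Epithelial lists showed no member past the test by its brightest probe. Absorptive enterocyte genes lay above 0 in 21 of 28 tested members, of 34 listed, with a median difference of 0.37. The brush border peptidase gene ANPEP differed by 0.87, the neutral amino acid transporter SLC6A19 by 0.75 (adjusted p = 0.12), and the meprin gene MEP1A by 0.52 without overlap, while FABP6 differed by -0.09 and VIL1 by -0.16. Paneth and epithelial antimicrobial genes lay below 0 in 11 of 15 members, with a median of -0.32, which became 0.19 with array position as a covariate. REG1B and REG1A, secreted lectins of regenerating and inflamed mucosa, differed by -1.85 (adjusted p = 0.14) and -1.12 (adjusted p = 0.16), and the Paneth cell defensin DEFA6 by -0.17. REG1B stood at 6.92 and 6.07 at 6.7 Gy and at 5.51 and 8.14 at 7.4 Gy on day 12, against 7.72 to 9.08 on day 7, so 1 array overlapped. OLFM4 was well above background on 1 of 4 day 12 arrays and 7 of 8 day 7 arrays and did not pass (adjusted p = 0.29), so no size is given for it, and LGR5, the receptor that marks crypt base stem cells, differed by 0.25. LCN15, a lipocalin, missed the threshold with -2.13 (adjusted p = 0.057), although its 4 day 12 arrays, at -4.39, -3.99, -5.33 and -4.38, all lay below the lowest day 7 signal of -3.34. In unirradiated animals LCN15 ran from -6.21 to -5.12, overlapping with day 12.

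LCT, the lactase gene, had 2 tested probes that did not match. One was called lower (adjusted p = 0.033), standing at -7.70 and -6.16 at 6.7 Gy and -7.27 and -6.38 at 7.4 Gy on day 12 against -5.87 to -1.81 on day 7. That probe was well above background on 1 of 4 day 12 arrays and 7 of 8 day 7 arrays, so no size is given for it, and leaving out 7 of the 12 arrays in turn gave adjusted p between 0.051 and 0.18. These were all 4 day 12 arrays, day 7, 6.7 Gy replicates 1 and 2, and day 7, 7.4 Gy replicate 4. The brightest LCT probe gave -0.65 (adjusted p = 0.50).

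UGT3A1, a UDP-glycosyltransferase of drug and bile acid conjugation, rose by 1.70 ± 0.27 (SE), 3.25-fold, with adjusted p = 0.0077. A second, dimmer UGT3A1 probe did not pass (adjusted p = 0.054) and was well above background on 3 of 4 day 12 and 3 of 8 day 7 arrays, so no size is given for it. The signals of the brighter probe on day 12 were -0.48 and -0.02 at 6.7 Gy but -3.13 and -3.57 at 7.4 Gy, against a lowest signal of -4.57, a median of -3.67 and a highest of -2.22 on day 7. The 7.4 Gy arrays therefore lay within day 7 and the 6.7 Gy arrays above it, with differences of 2.77 at 6.7 Gy (adjusted p = 0.0083) and 0.63 at 7.4 Gy (adjusted p = 0.74). The difference between the doses did not pass limma's test over all probes (adjusted p = 0.58). Without day 12, 6.7 Gy replicate 2 or 7.4 Gy replicate 1 the pooled adjusted p lay between 0.050 and 0.066. UGT3A1 was the 1 of 27 tested members of the drug and steroid metabolism list to pass, and the median of that list was 0.23. NR1I3, a nuclear receptor for foreign compounds, had a difference of 1.40 (adjusted p = 0.12).

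Several called genes belonged to none of the lists. NKAPL, a nuclear protein gene related to the transcription regulator NKAP, rose by 1.70 ± 0.23 (SE), 3.26-fold, with adjusted p = 0.0028, and SMR3A, a gene of a small secreted salivary peptide, rose 2.14-fold with the same adjusted p. NKAPL stood at -0.39, -0.57, -0.49 and -1.34 on day 12 against -2.65 to -1.68 on day 7, and SMR3A at 0.72, 0.46, 0.81 and 0.71 against -0.74 to -0.10. Neither gene overlapped between the days. Both calls were kept whichever of the 12 arrays was left out, but both were lost with slide as a fixed block, within the 4 slides that held both days at 1 dose, with array position as a covariate and with the replicate number as a block (adjusted p from 0.11 to 0.24). DHRS13, a short-chain dehydrogenase gene, rose by 1.23 ± 0.19 (SE), 2.35-fold, with adjusted p = 0.0072, from a day 7 median of -0.15 to day 12 signals of 1.44, 1.05, 1.19 and 1.14. Its adjusted p was 0.050 without day 12, 6.7 Gy replicate 1, and with that omission counted its pass was lost in 6 of 30 alternatives. NDST2, a heparan sulfate sulfotransferase that mast cells use to make heparin, rose 1.99-fold by the brighter of its 2 probes (adjusted p = 0.0077), just under the 2-fold limit, while the other gave 0.32 (adjusted p = 0.24), and the pass was lost without day 12, 6.7 Gy replicate 1 or 7.4 Gy replicate 1.

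LOC703304, an olfactory receptor 9Q2-like gene, was not well above background on any day 7 array and was so on all 4 day 12 arrays, at -3.62, -3.36, -2.96 and -5.19. It entered the test only through day 12, since day 4 and the unirradiated animals, with means of -6.85 and -7.05, lay as low as day 7, so a probe let in this way had to differ. It was at least 6.28-fold higher at day 12, and the fit's adjusted p of 0.0059 (0.061 without day 12, 7.4 Gy replicate 1) carries that selection and supports nothing further. This bound set the mean of the day 12 arrays against the lowest signals that counted as well above background on the day 7 arrays, or the probe's own where higher. It was not kept under every alternative, since the fitted log2 difference of LOC703304 ran from 0.95 to 3.96 over 29 of them. DDIT3, a stress-induced transcription factor, rose by 0.60 (adjusted p = 0.023), RBCK1, part of the linear ubiquitin chain complex, by 0.82 (adjusted p = 0.017), MPIG6B, a megakaryocyte and platelet receptor, by 0.85 (adjusted p = 0.023), and CRYBB3, a lens crystallin, by 0.81 (adjusted p = 0.0074). Without day 12, 6.7 Gy replicate 1 none of these 4 passed; without day 12, 7.4 Gy replicate 1 CRYBB3 alone did, and the adjusted p reached at most 0.18. RBCK1 and MPIG6B were also lost without day 12, 6.7 Gy replicate 2, and DDIT3 without day 7, 7.4 Gy replicate 4. Second probes of RBCK1 and CRYBB3 gave 0.51 (adjusted p = 0.11) and 0.24 (adjusted p = 0.74). The platelet list as a whole had a median of -0.22 over 8 tested members. Among these rises DDIT3 overlapped by day, with 0.84 as the lowest day 12 signal and 0.96 as the highest on day 7.

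For 6 other genes the called probe was not matched by the rest of the gene's probes or was dim. A probe of FAU, a ribosomal protein fusion gene, rose by 2.44 (adjusted p = 0.030) while the brightest FAU probe gave -0.36. A probe of PNO1, a ribosome assembly factor, rose by 1.57 (adjusted p = 0.018) while its other probes gave -0.20 and -0.04, and a probe of the centrosomal gene CEP120 rose by 1.13 (adjusted p = 0.026) while its other probes gave 0.13 and 0.41. A probe of TYMP, thymidine phosphorylase, rose by 1.21 (adjusted p = 0.049), and the brightest TYMP probe gave 0.51 (adjusted p = 0.057). PAX6, a transcription factor of endocrine cells, and LOC100430419 had called probes that were well above background on 3 of 4 day 12 arrays and on 4 and 2 of 8 day 7 arrays, so no size is given for them. Both met the background criterion of the test only in the day 12 group at 6.7 Gy, and their calls support nothing further. All 6 calls were lost in omissions of single arrays: PAX6 and TYMP in 9 of 12, FAU in 8, CEP120 in 6, PNO1 in 3 and LOC100430419 in 2. Day 12, 7.4 Gy replicate 1 was among them for all 6, day 12, 6.7 Gy replicate 1 for the first 5 of these genes, and the adjusted p without 1 array reached at most 0.25.

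Among the genes that fell, LOC717648, a nicotinamide mononucleotide adenylyltransferase 2-like gene, had signals of -8.14, -8.09, -8.08 and -9.18 on day 12 and of -6.17 to -2.43, median -3.20, on day 7. It was not well above background on any day 12 array and was so on all 8 day 7 arrays, and it was at least 6.94-fold lower at day 12 (adjusted p = 0.030). Over 29 alternative fits and processings its fitted log2 difference ran from -5.56 to -1.38, so this bound was not kept under every one. The unirradiated animals spread widely, with a mean of -4.72 ± 2.90 (SD, n = 4), and leaving out 8 of the 12 arrays in turn, all 4 of day 12 among them, gave adjusted p between 0.054 and 0.11. The other 4 of these arrays were day 7, 6.7 Gy replicates 1 and 3, and day 7, 7.4 Gy replicates 3 and 4.

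CTSL2, cathepsin L2, a lysosomal protease, was likewise not well above background on any day 12 array, at -7.53, -6.82, -7.91 and -8.71, and was so on 7 of 8 day 7 arrays, with a median of -4.31. It was at least 3.67-fold lower at day 12 (adjusted p = 0.023), and the call was lost without any of the 4 day 12 arrays or without day 7, 7.4 Gy replicate 4 (adjusted p from 0.052 to 0.11). The bound was not kept under every alternative, since the fitted log2 difference of CTSL2 ran from -4.94 to -0.67 over 28 of them. The brightest of 4 probes for LOC701058, a FAM227A gene, fell by 1.64 ± 0.28 (SE) on the log2 scale with adjusted p = 0.014, from a day 7 median of -2.82 to -4.34, -3.63, -4.86 and -4.41. Its other 3 probes gave -0.34, -0.74 and -0.47 (adjusted p from 0.22 to 0.63), and none passed. The unirradiated mean of the brightest LOC701058 probe, -4.14 ± 0.27 (SD, n = 4), lay close to day 12, and its call was lost without day 12, 6.7 Gy replicate 1 or 7.4 Gy replicate 1 (adjusted p from 0.099 to 0.10). LOC719166 was also called lower (adjusted p = 0.048), with overlap between the days. It was well above background on 1 of 4 day 12 arrays and all 8 day 7 arrays, so no size is given for it. Its call was lost in 9 of 12 omissions of an array (adjusted p from 0.063 to 0.25).

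Further genes fell by 2-fold or less. RBM3, an RNA-binding protein that cold induces, fell by just short of 2-fold (adjusted p = 0.0080), with day 12 signals of -0.89, -1.47, -0.23 and -0.44 under a lowest day 7 signal of -0.16. MARCKS, an actin-binding substrate of protein kinase C, fell by 0.57 (adjusted p = 0.0077), and its day 12 signals of 2.25, 2.19, 2.21 and 2.22 lay under 2.46. A second MARCKS probe, well above background on all 12 arrays, gave -0.14 (adjusted p = 0.74). GPX1, the selenoprotein that reduces peroxides with glutathione, fell by 0.63 (adjusted p = 0.033), with day 12 signals of 5.60, 5.60, 5.54 and 5.62 under a lowest day 7 signal of 5.90. In the brightest probe of RBM3, MARCKS and GPX1 the days did not overlap. Removal of 1 array ended the pass of RBM3 (day 12, 6.7 Gy replicate 2) and of MARCKS (day 12, 7.4 Gy replicate 1), and 8 arrays did so for GPX1, all 4 of day 12 and day 7, 6.7 Gy replicates 1 and 3 and 7.4 Gy replicates 3 and 4. With other fits and processings counted too, 8 of 30 alternatives ended the pass of RBM3, 7 that of MARCKS and 16 that of GPX1. LOC712343, a 40S ribosomal protein S12-like gene, fell by 0.90 (adjusted p = 0.033), and the brighter of 2 probes for MAPRE2, a microtubule end-binding protein, fell by 0.66 (adjusted p = 0.025), while the other gave -0.05 (adjusted p = 0.89). Omission of single arrays ended these passes 7 and 4 times, for both without day 12, 6.7 Gy replicate 1, day 12, 7.4 Gy replicates 1 and 2 and day 7, 7.4 Gy replicate 4 (adjusted p up to 0.16).

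Within single doses fewer probes passed. At 6.7 Gy, 13 probes were called, 7 higher and 6 lower (0.0360%), and at 7.4 Gy 2 were called, both higher (0.00554%), while 584 and 536 passed before adjustment. The 7.4 Gy direction was not stable: without day 12, 7.4 Gy replicate 1, 23 probes were called, 1 higher and 22 lower, without 7.4 Gy replicate 2, 21 were called, 14 higher and 7 lower, and with slide as a fixed block 3 were called, all lower. Among the 8 with symbols at 6.7 Gy, ZNF337, a zinc finger gene, rose by 1.24 (adjusted p = 0.032), CISD1, an iron-sulfur protein of the outer mitochondrial membrane, fell by 1.02 (adjusted p = 0.047), and RBM3 fell by 1.42 (adjusted p = 0.025). At 7.4 Gy the probe with a symbol was CRYBB3, which rose by 1.21 (adjusted p = 0.025). THSD1, a thrombospondin domain gene of endothelium, fell by 2.03 on the log2 scale at 6.7 Gy (adjusted p = 0.0083) and differed by 0.02 at 7.4 Gy (adjusted p = 0.99), so its pooled fall of 2-fold (adjusted p = 0.029) came from 1 dose. That pooled call was lost without day 7, 7.4 Gy replicate 3, day 12, 6.7 Gy replicate 1 or either 7.4 Gy array of day 12 (adjusted p from 0.056 to 0.16). The change differed between the doses for 0 probes by limma with Benjamini-Hochberg adjustment, where the smallest adjusted p was 0.39 and 586 probes passed before adjustment. Of the 41 pooled probes, 40 had the same sign at both doses, as the choice by their mean favours, and 32 were at least 2-fold at both. With 2 day 12 arrays a dose, what was not called at a dose is not shown to be unchanged.

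**Figure D4:**
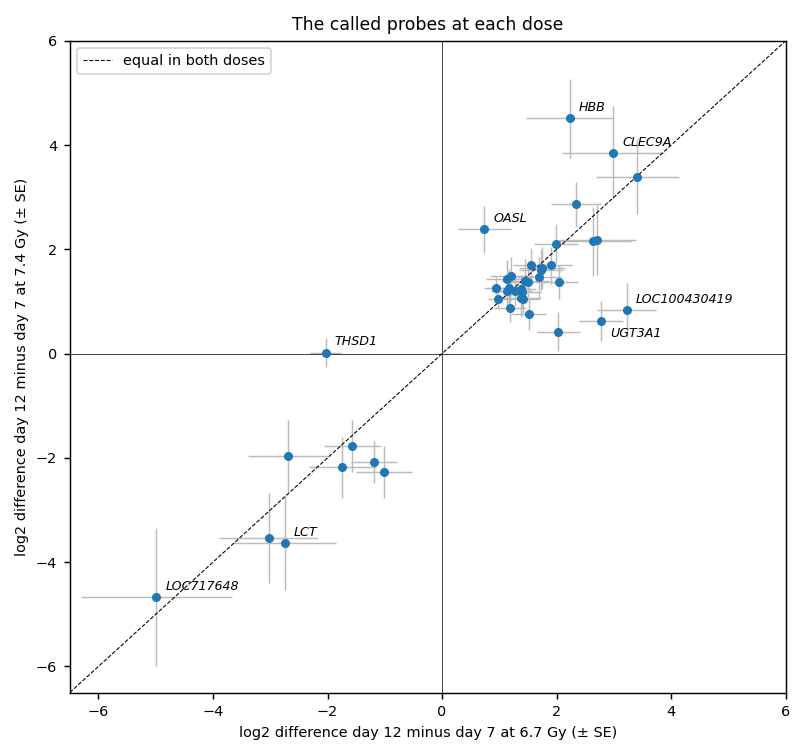
Log2 difference, day 12 minus day 7, of the 41 called probes at 6.7 Gy (x axis) and 7.4 Gy (y axis), with bars for the SE and a dashed line for equal differences. HBB (2.23 and 4.51), OASL (0.74 and 2.38), UGT3A1 (2.77 and 0.63) and THSD1 (-2.03 and 0.02) stand off the line.

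The 4 slides that held both days at 1 dose gave a pair each. Of the 41 called probes, 40 had the pooled sign in all 4 pairs and THSD1 had it in 3, although these arrays are part of those that chose the probes. IL6 differed by between 1.41 and 1.98 over the pairs, HBB by between 1.86 and 6.17 and OASL by between 0.42 and 2.25. Against the 2 day 7 arrays that shared position 4 with day 12, all 41 kept their sign and 39 were at least 2-fold, which the choice of the probes on these same arrays favours, with 3.84 for HBB, 1.67 for IL6 and 2.22 for OASL. Fitted on the 4 pairs alone with slide as a block, 0 probes were called by limma with Benjamini-Hochberg adjustment, and 424 passed before adjustment. Of the 32 higher probes, 19 had day 12, 7.4 Gy replicate 2 as the lowest day 12 array.

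**Figure D5:**
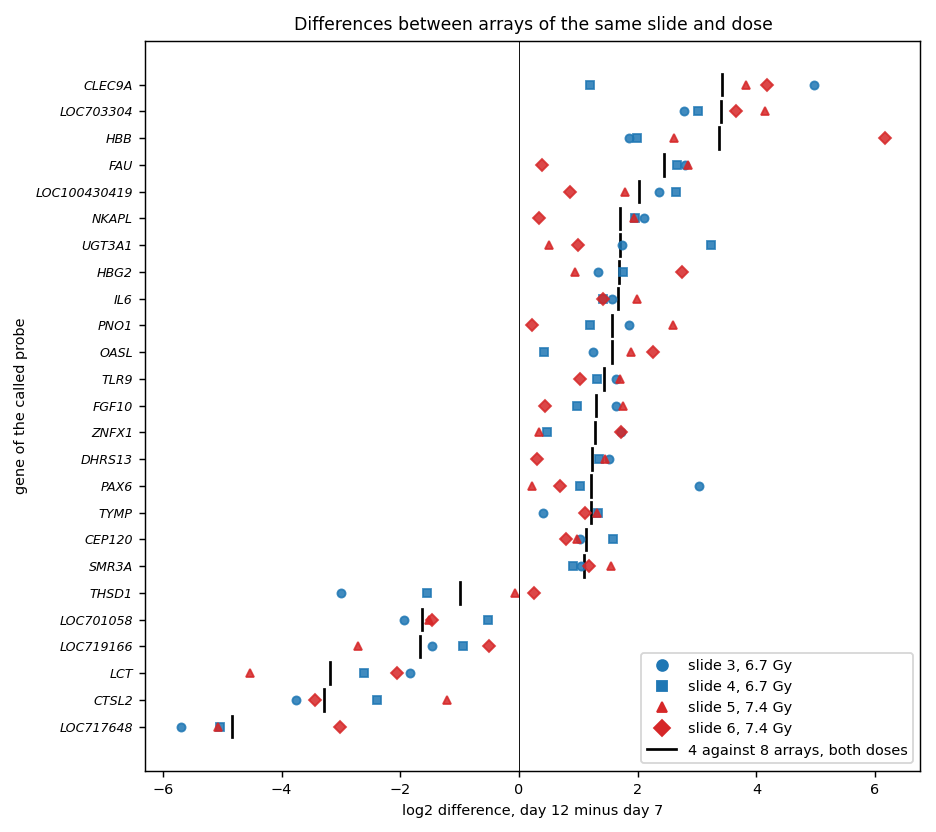
Log2 difference, day 12 minus day 7, between the 2 arrays of each of 4 slides, for the called probes with a gene symbol, with a symbol for each slide, colour for dose and a black line for the difference of 4 against 8 arrays. Genes other than THSD1 keep 1 side of 0 on all 4 slides, and HBB runs from 1.86 to 6.17.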

How the data were processed

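RNA of 24 ileum samples was hybridised to 24 single-colour Agilent rhesus arrays. Per the file headers, the deposited intensity values were background-subtracted by Feature Extraction 11.0.1.1 under the array design's rheMac2 build. The deposited series table held log2 values that the authors had normalized to the 75th percentile and centred by probe; 100.0% of single-spot probes lay within 0.05 of the values used here after centring. A second deposited table, of intensity values, was not used. Of 43603 probes, 23674 carried a symbol in the files, and no spot was saturated. The reference gene list from RefSeq matched 7091 probes, was of another build and served for names only, so coordinates are not printed.

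The processed signal was put on the log2 scale minus the array's 75th percentile, and spots of a probe were averaged. Probes entered the test if the scanner software's background criterion was met throughout 1 or more of the 7 groups (day by dose). One mean per group was fitted over 24 arrays in limma 3.58.1 under R 4.3.3, and p-values were adjusted by Benjamini-Hochberg. A call needed an adjusted p under 0.05 and a change of at least 2-fold. The scripts were tested on simulated data. The p-values compare 4 with 8 arrays, 1 animal each, under a spread fitted over 24 arrays, and these small numbers limit their precision.

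Where a gene had several tested probes, the one brightest over 24 arrays stood for it. Genes to name were drawn from the 15 largest rises and 15 largest falls among called genes without overlap between days, filled by smallest p. The called and smallest-p members of 34 lists were added, with genes that the study or an earlier account named. Not all of these are printed. Among those filled in by smallest p, ZNF143, SSX2IP, ARHGAP22, LOC696998, LOC721674 and a gene listed as 10-Sep were left out. Other called probes, genes past the test within a dose and list members outside this rule were named after their values were seen. The arrays, comparisons and lists were chosen with earlier results of these data known. Lists were described by counts and medians with no test. The fixed gene PF4 had no tested probe.

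Alternatives were another fit or moderation, the methods' t-test, background correction, normalization, dim-probe filters, slide, position and scan day as blocks or covariates, the replicate block, the mean over a gene's probes, and each array left out in turn. The normexp correction used the median foreground signal of each spot.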

Additional observations from a re-analysis of the deposited data

Results flagged for a closer look

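Within the 2 days, 22 of 252 sets of 4 or 8 arrays had 1 array far from the rest, by the gap to its nearest array as a share of the whole range; chance gives about 1 in 20 such sets. On day 12, 7.4 Gy replicate 2 stood apart for HBB (share 0.839, at 0.20 with the nearest array at -2.50), FGF10 (0.882), FOSB (0.833) and LOC717648 (0.945), and 7.4 Gy replicate 1 for the mean of the respiratory chain genes (0.933, at 4.51 with the nearest array at 4.37). Day 12, 6.7 Gy replicate 1 stood apart for CNDP1 (0.958), LOC712343 (0.880) and VWF (0.885), and 6.7 Gy replicate 2 for MAPRE2 (0.880) and ZNFX1 (0.966).

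On day 7, 7.4 Gy replicate 2 stood apart for DHRS13 (0.622, at 0.84 with the nearest array at 0.10), FAU (0.833), FCRLA (0.698), HBG2 (0.577), LOC717648 (0.668, at -6.17 with the nearest array at -3.67) and NKAPL (0.722). Day 7, 7.4 Gy replicate 1 did so for C1QC (0.536) and ZNFX1 (0.622), 7.4 Gy replicate 3 for KLKB1 (0.626), and 7.4 Gy replicate 4 for NEUROD1 (0.564), OASL (0.584, at -2.70 with the nearest array at -1.55) and the mean of the plasma cell genes (0.533, at -1.16 with the nearest array at -0.36). Without day 12, 7.4 Gy replicate 2 the pooled count of called probes was 52, without day 12, 6.7 Gy replicate 2 35, without day 7, 7.4 Gy replicate 1 50 and without day 7, 7.4 Gy replicate 3 30, beside 41 with all arrays.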

How the results depend on the processing

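Counts of called probes are given in the order both doses, 6.7 Gy and 7.4 Gy, beside 41, 13 and 2. A fit of the 12 arrays gave 54, 26 and 2. Of its 54 pooled probes, 37 were higher and 17 lower, and 31 were among the 41. Intensity trend with robust moderation gave 5 at 7.4 Gy. The methods' t-test gave 334, 433 and 311 unadjusted, and 27, 0 and 0 after Benjamini-Hochberg. Normexp gave 14 for both doses, and quantile normalization 27 and 15 for the single doses. Without a filter on dim probes the single doses gave 8 and 1, with a filter on all arrays of either day 6 and 4, and with one on all 12 arrays 5 at 7.4 Gy. Slide as a random block gave 65, 27 and 8, slide as a fixed block 11 and, at 6.7 Gy, 1, position as a covariate 5, 1 and 0, the 4 slides with both days 0, 0 and 0, and scan day as a block 26, 7 and 1. The replicate block gave 6, 0 and 0, although the numbers did not pair animals (deviations of same-numbered arrays correlated at 0.04, -0.12, 0.24 and 0.36). Leaving out each array gave 18 to 68, 2 to 31 and 0 to 23, and 0 to 11 probes for the difference between doses, beside 0; the 11 came without day 12, 7.4 Gy replicate 2. With position as a covariate 6 named genes that had not passed changed sign: TNF 0.13, CYP1A1 1.62, MMP12 -0.55, LCN2 0.30, GDF15 0.18 and CNDP1 0.04. Leaving out 1 array also turned MMP12 (range -0.54 to 0.80), GDF15 (-0.44 to 0.33), TNF (-0.48 to 0.16) and CYP1A1 (-1.15 to 0.31). The mean over a gene's probes turned GALC to 0.00 and CCL21 to -0.02, and moved TLR9 to 0.36 (adjusted p = 0.23) and LCT to -1.92 (adjusted p = 0.097). Across the named genes 2184 values kept direction and side of the threshold, 505 passed no longer, 34 newly passed and 18 turned. Genes given above with array omissions alone also lost their pass under other alternatives. With omissions included, UGT3A1 lost it in 9 of 30, CRYBB3 in 9, PCCB in 7, LOC701058 in 7 and NDST2 in 6. The cause of these moves was not tested, except that single-array and 4-slide fits use fewer samples.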
